A study of Arabidopsis thaliana with 12 samples.

Results

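In rosettes of ref4-3 plants, 244 of the 7041 stretches called as enriched for H3K27me3 shared no base pair with any of the 7406 stretches called in wild type. These ref4-3-only islands are described here. They were chosen by comparing the island lists of the merged replicates of each genotype, so all 4 H3K27me3 libraries entered the choice, and the H3K27me3 values of the islands are given as a description without a test. The islands covered 176.0 kb, which was 0.939% of the sequence covered by the ref4-3 list. They were compared with the 6797 ref4-3 islands that overlapped a wild-type island (shared islands) and with the 522 wild-type islands that overlapped none of ref4-3 (wild-type-only islands).

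The samples were whole rosettes of Arabidopsis thaliana, ecotype Columbia-0, 21 days old and grown on soil in long days. Wild type was compared with ref4-3, a line with a semidominant point mutation that substitutes an amino acid of MED5b, a subunit of the Mediator tail; no other allele or treatment set the groups apart. ChIP-seq was done for H3K27me3 and for the histone variant H2A.Z with 2 replicates per genotype. A whole rosette mixes many cell types, so a mark in more cells and more of the mark per cell cannot be told apart.

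H3K27me3 is the trimethylation of lysine 27 of histone H3. Polycomb repressive complex 2 (PRC2) deposits it, in plants mostly over whole genes that are kept silent in a tissue, and JUMONJI-type demethylases remove it. H2A.Z replaces H2A in some nucleosomes, is brought in by the SWR1 remodeling complex, and in Arabidopsis occurs both at the start of active genes and along the bodies of genes carrying H3K27me3. As a check of the tissue, the 7 floral organ identity genes AG, AP3, PI, SEP3, SHP1, SHP2 and STK, which are silent in leaves, all lay on wild-type H3K27me3 islands.

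Stretches from 4 of the islands show what kind of sequence they covered. The first 3 belong to genes among the 5 largest H3K27me3 differences, and the last is the island with the highest score. All are the plus strand, 5′ to 3′, read from RefSeq's TAIR10.1 assembly. Capitals mark each CCG or, on the other strand, CGG. The AT5G43755 stretch is chr5:17583951-17584250, the HAT1 stretch chr4:9739851-9740150, the RAV1 stretch chr1:4542951-4543250 and the VIM4 island chr1:24586001-24586200. The AT5G43755 stretch lies upstream of the gene, the HAT1 stretch spans the coding part of the first exon, an intron and the start of the next exon, and the RAV1 stretch is coding throughout.
AT5G43755: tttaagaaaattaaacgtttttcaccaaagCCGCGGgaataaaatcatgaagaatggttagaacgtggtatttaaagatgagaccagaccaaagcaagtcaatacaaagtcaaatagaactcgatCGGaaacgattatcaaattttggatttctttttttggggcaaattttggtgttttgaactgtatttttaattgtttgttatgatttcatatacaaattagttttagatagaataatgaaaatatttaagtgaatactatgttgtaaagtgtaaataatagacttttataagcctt
HAT1: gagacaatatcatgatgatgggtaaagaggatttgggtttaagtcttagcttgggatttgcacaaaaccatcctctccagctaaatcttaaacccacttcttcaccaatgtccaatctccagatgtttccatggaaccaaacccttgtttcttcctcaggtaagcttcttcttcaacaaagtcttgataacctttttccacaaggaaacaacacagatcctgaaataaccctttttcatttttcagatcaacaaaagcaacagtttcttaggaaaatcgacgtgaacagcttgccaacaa
RAV1: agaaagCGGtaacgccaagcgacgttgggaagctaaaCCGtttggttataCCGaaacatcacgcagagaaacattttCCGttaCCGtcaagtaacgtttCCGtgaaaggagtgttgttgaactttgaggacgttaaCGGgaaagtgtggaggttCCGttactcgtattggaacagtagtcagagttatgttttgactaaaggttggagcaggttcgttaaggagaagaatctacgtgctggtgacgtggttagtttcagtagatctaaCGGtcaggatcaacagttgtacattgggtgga
VIM4: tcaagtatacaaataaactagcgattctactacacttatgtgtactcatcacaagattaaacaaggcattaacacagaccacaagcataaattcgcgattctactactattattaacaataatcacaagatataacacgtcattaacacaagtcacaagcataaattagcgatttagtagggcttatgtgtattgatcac
The RAV1 stretch had a GC content of 45.0% and held 9 of these triplets, whereas the HAT1 stretch held 0 at 39.0%. The AT5G43755 stretch had a GC content of 28.0% and held 3. The VIM4 island is intronic and held 0, and 81.0% of its bases matched other sequence within 2000 bp of it (matches of 60 bp or more, 75% or more identical).

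These islands were short. Their lengths ran from 200 to 2600 bp with a median of 600 bp, against 1800 bp for shared islands, and 29 of the 244 were longer than 1000 bp (11.9%, against 70.8% of shared islands). Wild-type-only islands had the same median of 600 bp. The score that the caller gives each island, which has no stated unit and is used only as a rank, had a median of 70.3 against 163 for shared islands. With the score held to at least the median of the whole ref4-3 list, 4 of the 244 islands were left.

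The 5 highest scores were 270 at the VIM4 island, 257 at chr5:20597401-20597600, 236 at chr5:15145401-15146400, and 191 and 146 at chr2:10908401-10909200 and chr2:10909601-10909800. VIM4 encodes a RING-finger protein of the VARIANT IN METHYLATION family, whose best known member acts in DNA methylation. The chr5:20597401-20597600 island has no annotated gene, and 58.5% of it had a copy elsewhere in the genome (matches of 100 bp or more, 95% or more identical). The chr5:15145401-15146400 island is also intergenic, and 49.8% of it resembled sequence within 2000 bp. The last pair lies in the coding sequence of BGLU14, a beta-glucosidase gene. Over all 244 islands, 9 held such a near-identical copy and 6 were repeated nearby over most of their length. Reads from copies cannot be assigned with certainty, and the part of repeats in these scores was not tested.

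The longest island, at 2600 bp, is chr2:17829801-17832400 over CYP718, a cytochrome P450 gene. Of the next longest, at 1800 bp, chr5:7707801-7709600 has no annotated gene, chr2:8059401-8061200 covers the UDP-glycosyltransferase gene AT2G18560, and chr2:11942201-11944000 holds the MIR172a precursor. miR172 represses AP2-type floral repressors, and 94.3% of its island lay outside genes. A further 3 islands were 1600 bp long.

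**Figure D1:**
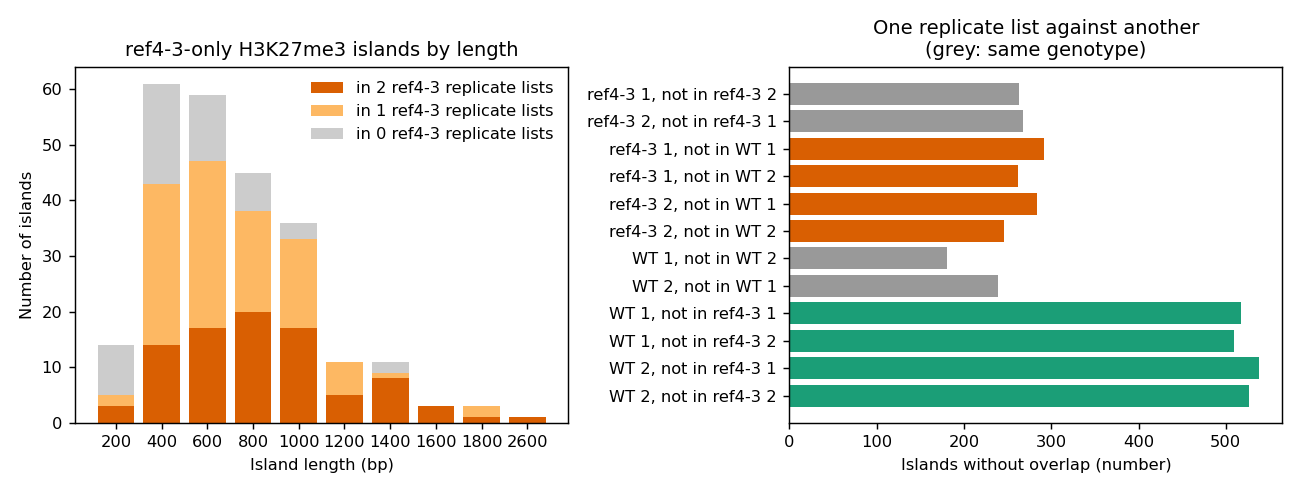
Left, number of ref4-3-only islands by length in bp, split by how many of the 2 ref4-3 replicate lists hold an overlapping island. Right, number of islands of one replicate list without overlap in another. The grey bars, for lists of the same genotype, run from 181 to 268, and the ref4-3 lists set against wild type (orange) from 246 to 292.

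The authors also called islands in each library alone. Of the 244 islands, 134 were overlapped in ref4-3 replicate 1 and 148 in ref4-3 replicate 2. Both replicates had an island at 89 of them, 1 of the 2 at 104 and neither at 51, and 14 had an island in 1 of the wild-type replicates. Islands in both ref4-3 lists and in no wild-type list numbered 84, or 34.4%. These 84 had a median length of 800 bp, and the 51 in no ref4-3 list had a median of 400 bp.

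The same rule was applied to every ordered pair of the 4 replicate lists. ref4-3 replicate 1 held 263 islands absent from ref4-3 replicate 2, and replicate 2 held 268 absent from replicate 1. Against the wild-type lists the numbers were 292 and 262 for ref4-3 replicate 1, and 284 and 246 for replicate 2. The ref4-3 lists thus differed from wild type by about as many islands as they differed from each other. In the other direction the wild-type lists held 509 to 538 islands absent from a ref4-3 list, against 181 and 239 absent from each other. Of the 292 islands that replicate 1 called only in ref4-3, 107 (36.6%) were also found only in ref4-3 by replicate 2. Of the 246 that replicate 2 called only in ref4-3, 108 (43.9%) were so in replicate 1.

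Of the 244 islands, 192 lay within 5000 bp of a wild-type island. The gap to the nearest one had a median of 1400 bp, and 98 of 244 (40.2%) lay within 1000 bp, the smallest gap being 200 bp. For wild-type-only islands the median gap to a ref4-3 island was 3000 bp. The 3 just inside the rule, each 200 bp from a wild-type island, were chr1:10072201-10072800 in the lipase gene AT1G28660, with a score of 99.7, chr2:6166001-6166400 in the transcribed pseudogene AT2G14490, with 120, and the intergenic chr5:19795801-19796800. Counted by shared base pairs, 91 ref4-3 islands shared only 200 bp with wild type, some of them over their whole length. The first 3 by position, chr1:2641001-2641200, chr1:3063601-3063800 and chr1:3846401-3847000, had scores of 63.1, 174 and 60.8. Of these, chr1:2641001-2641200 and chr1:3063601-3063800 are 200 bp long and lay wholly within wild-type islands, so they did not narrowly miss the rule. The 3 farthest from wild-type islands were the BGLU14 pair, at 33800 and 33200 bp, and chr5:20597401-20597600 at 33000 bp, which are also among the 5 highest scores.

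The islands were spread over all 5 chromosomes, at 1.88 to 2.19 per Mb. Of the 244, 122 (50.0%) overlapped a protein-coding gene, against 79.6% of shared islands and 62.8% of wild-type-only islands. A further 22 overlapped only a gene of another kind, and 33 lay outside genes but within 1000 bp upstream of a protein-coding gene. The other 67 (27.5%) lay elsewhere, against 7.62% of shared islands and 17.0% of wild-type-only islands. By base pairs, 42.9% of their sequence was intergenic and 27.6% was coding. In all they touched 148 genes, of which 120 are protein-coding, 11 are lncRNA genes and 12 are pseudogenes, 7 of them transcribed.

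**Figure D2:**
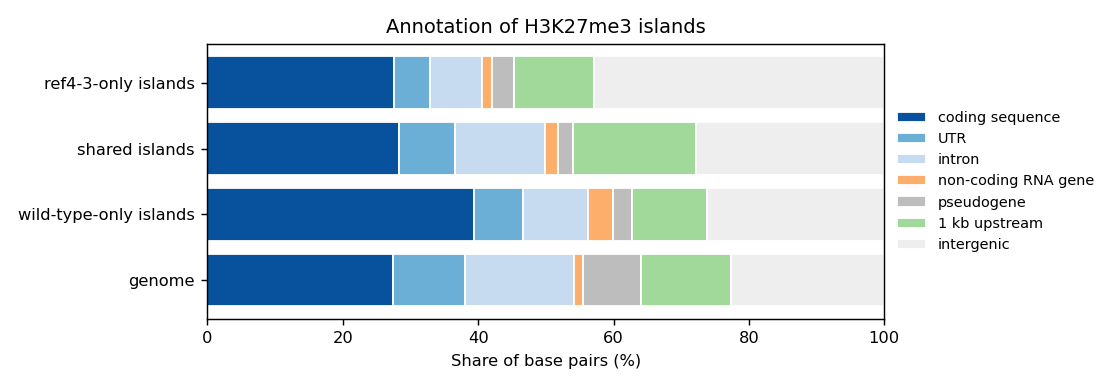
Share of base pairs (%) by annotation for the 3 classes of islands and the nuclear genome. Intergenic sequence means all that lies outside genes and not within 1 kb upstream of a protein-coding gene. It takes 42.9% of ref4-3-only islands, 27.8% of shared islands, 26.1% of wild-type-only islands and 22.6% of the genome.

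Within genes they covered small parts. Where an island shared at least 200 bp with a protein-coding gene, it covered a median of 28.8% of the gene (115 pairs of island and gene), against 91.3% for shared islands and 28.6% for wild-type-only islands. None of these 115 covered a whole gene, whereas 40.2% of shared and 0.926% of wild-type-only pairs did. The start of the gene was inside the island in 16 of the 115 (13.9%), against 66.3% of shared and 15.4% of wild-type-only pairs.

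Sequence motifs that have been linked to recruitment of PRC2 in plants were counted on both strands, since islands of different length cannot be compared by the share that holds a motif. Per kb, the telobox AAACCCTA occurred 0.159 times in these islands, 0.176 times in shared and 0.240 times in wild-type-only ones, with 0.166 in all nuclear chromosomes. The triplet CCG occurred 13.4 times per kb, against 10.3 in shared islands, 12.7 in wild-type-only islands and 9.80 in the chromosomes, while the median GC content of the islands was 35.0%, 35.4% and 38.1%. The other motifs were the G-box CACGTG, at 0.142 per kb against 0.158 in shared islands, the AC repeat ACACAC, at 0.619 against 0.638, and the tetramer CTCC, at 5.85 against 5.56. In the central 300 bp of each island, 4.51% held a telobox, against 4.77% of shared islands and 3.87% of all 300-bp windows of the chromosomes. The GA repeat GAGAGA was in 24.6% of the central windows, 24.4% of those of shared islands and 24.3% of all windows. These matches describe letters only.

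H3K27me3 fragments had been counted by the authors in the parts of genes that lay inside islands of either genotype. The counts cover 124 of the 244 islands, with 128 gene regions of 124 genes, all of them wholly on the islands; the other 120 islands have no count. Wild type also had counts at these regions. Input was not subtracted, so H3K27me3 and background signal cannot be told apart at so low a level. The lowest count in any library was 41. The median level was 27.4 and 27.6 CPM per kb in the wild-type libraries, against 39.9 and 36.5 in the ref4-3 libraries. CPM are counts scaled to the fragments of each library that fell in regions, here also divided by the length of the region. Regions on shared islands stood at 77.3 to 78.5 in all 4 libraries. By level per kb in wild type, the median region on these islands ranked at the 1.84th percentile of all 8663 H3K27me3 regions, and in ref4-3 at the 15.8th.

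The median log2 fold change (ref4-3 over wild type, edgeR) at these 128 regions was 0.40, a 1.32-fold higher count, and it ranged from -0.08 to 2.55. It was above 0 at 127 regions. Over all regions the median was 0.00, at shared islands 0.01 (8105 regions) and at wild-type-only islands -0.27 (372 regions). The counts were scaled so that the bulk of regions lies near 0, and fold changes are relative to that bulk. A modest reduction common to most marked genes, which the paper reports from input-subtracted profiles, would not show on this scale. Both ref4-3 libraries exceeded both wild-type libraries at 118 of the 128 regions, where over all regions 31.4% did so, and the reverse, seen at 30.5% of all regions, occurred at 0 of them. The rule chose the islands on these libraries, so nothing follows from these shares. For the same reason no calls are given at the 128 regions. At the study's thresholds, an FDR below 0.05 and a fold change above 1.2, 5.43% of all regions were called higher and 7.54% lower. These were 470 and 653 regions in edgeR, where DESeq2 called 190 and 223 of the 8663. By replicate support, the median log2 fold change was 0.51 at the 49 regions on islands in both ref4-3 lists, 0.37 at the 50 on islands in 1 list and 0.32 at the 29 on islands in neither. The replicate lists were called on the same libraries, so this order is a description too.

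**Figure D3:**
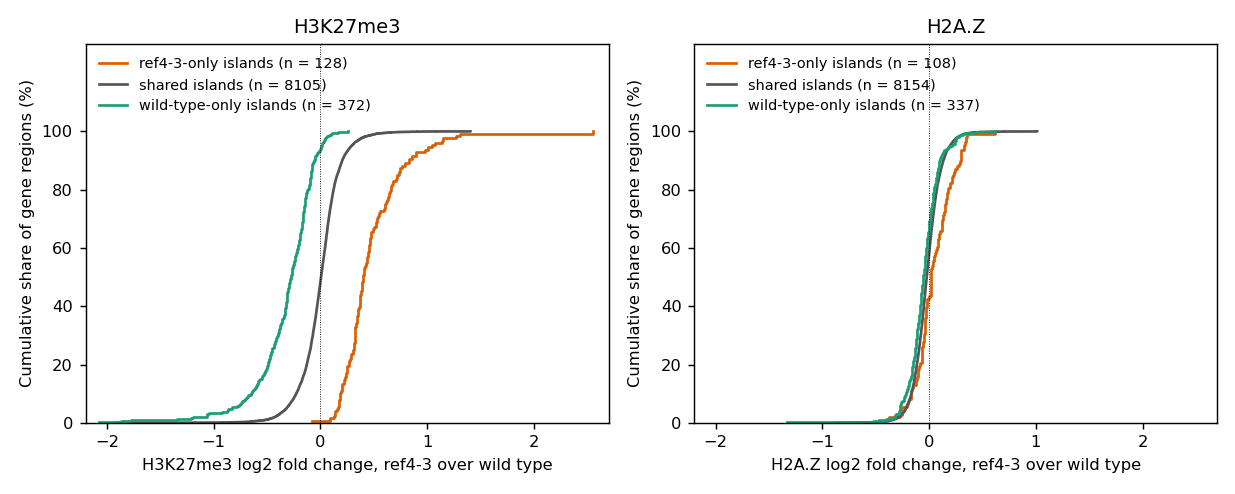
Cumulative share (%) of gene regions by log2 fold change of ref4-3 over wild type, for H3K27me3 (left) and H2A.Z (right), for regions on ref4-3-only, shared and wild-type-only islands. The H3K27me3 curves are set apart by how the islands were chosen, with medians of 0.40, 0.01 and -0.27. The H2A.Z curves have medians of 0.02, -0.02 and -0.06.

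AT5G43755, annotated as a non-LTR retroelement reverse transcriptase-like gene, had the largest difference. Its region held 5.68 and 4.82 CPM in wild type and 30.8 and 30.8 CPM in ref4-3, and its log2 fold change was 2.55 (SE 0.187). Its neighbor KCS20, a 3-ketoacyl-CoA synthase gene of very-long-chain fatty acid synthesis, was at 9.03 and 8.94 CPM in wild type and 18.1 and 19.0 in ref4-3 (log2 fold change 1.05, SE 0.168). At both genes the genotypes were well separated, and the replicates lay close together. The 12 regions with the highest fold changes were picked by these values, on islands chosen from the same libraries. That choice favors separation of the genotypes at all 12, so it is a description only. A second KCS20 region, off these islands, had a log2 fold change of 1.08, so the higher level was not limited to the part that the rule picked.

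Transcription factor genes were among the largest differences. BZIP34, a bZIP factor, had 16.5 and 13.2 CPM in wild type and 37.0 and 34.5 in ref4-3 (log2 fold change 1.27, SE 0.136), although neither ref4-3 replicate list held its island. HAT1, an HD-ZIP factor of the shade response, had 21.0 and 15.8 CPM against 45.7 and 36.4 (1.15, SE 0.138). RAV1, an AP2/B3-domain factor that represses growth, had 24.4 and 25.5 CPM against 55.8 and 54.5 (1.14, SE 0.105). In each of these the lower ref4-3 library exceeded the higher wild-type library by more than the replicates differed. The choice of the 12 regions by fold change favors this separation.

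PAR1, a bHLH-type negative regulator of shade avoidance, had 8.65 and 7.29 CPM in wild type and 16.4 and 17.0 in ref4-3 (log2 fold change 1.07, SE 0.177). GLK2, a GARP factor that drives chloroplast genes, held 2 of the islands. Its region with the larger difference had 8.13 and 7.29 CPM against 16.9 and 13.8 (0.98, SE 0.184). EBP, an ethylene response factor also known as RAP2.3, had 12.1 and 13.6 CPM against 22.2 and 24.4 (0.86, SE 0.149). The genotypes did not overlap at any of these 3 genes, whose regions were picked for their fold change. Over all H3K27me3 regions, 31.4% had both ref4-3 libraries above both wild-type libraries.

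The other regions among the 12 largest differences were those of AT1G22330, AT1G08843, AT1G11362 and AT1G59970. AT1G22330, an RNA-binding protein gene, had 11.9 and 15.8 CPM in wild type and 34.6 and 34.4 in ref4-3 (log2 fold change 1.31, SE 0.140). The lncRNA gene AT1G08843 had 9.81 and 10.2 CPM against 20.9 and 19.7 (1.01, SE 0.161). AT1G11362, a gene of the invertase and pectin methylesterase inhibitor family, and AT1G59970, a matrixin-type metalloprotease gene, had log2 fold changes of 0.90 (SE 0.156) and 0.89 (SE 0.135). ref4-3 was higher in both libraries at all 4, which were likewise picked for their fold change.

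**Figure D4:**
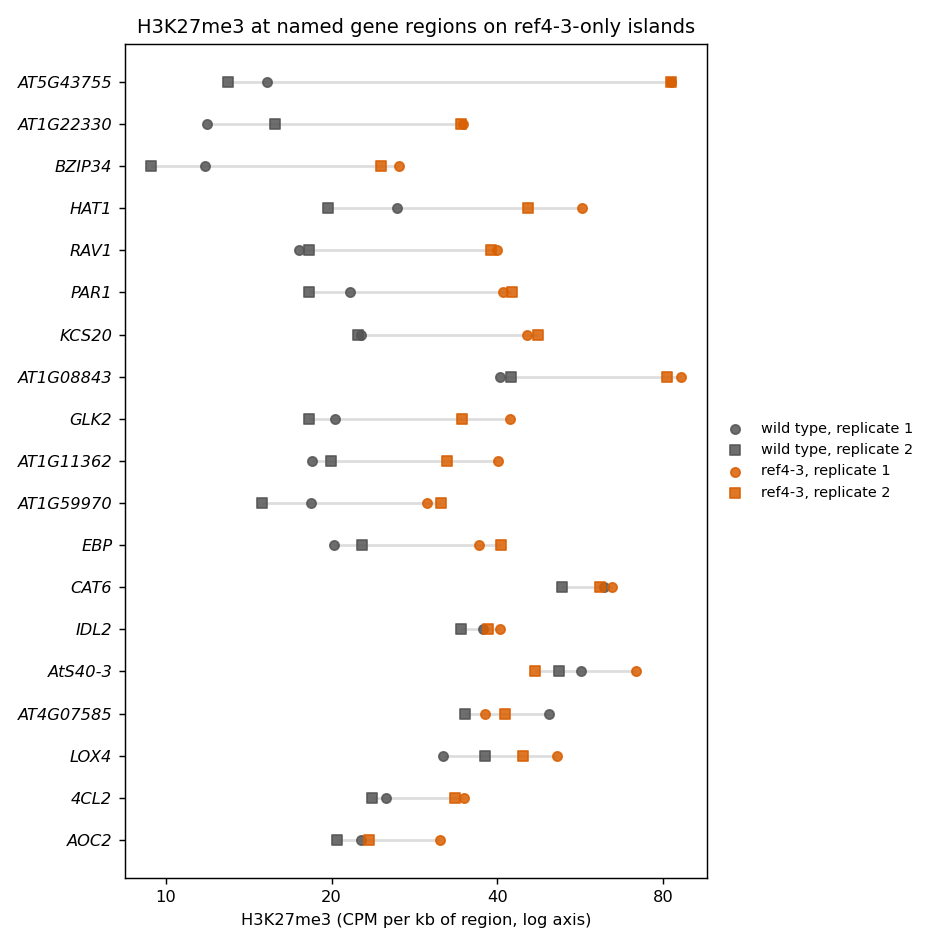
H3K27me3 level in each library (CPM per kb of region, log axis) at the 12 regions with the highest and the 4 with the lowest log2 fold change on ref4-3-only islands, followed by the 3 regions of listed pathway genes. At the first 12 regions, picked for their fold change, both ref4-3 libraries lie right of both wild-type libraries. At CAT6, AtS40-3 and AT4G07585 the genotypes overlap.

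At 3 of the 4 regions with the smallest differences the genotypes overlapped, the exception being IDL2. CAT6, an amino acid transporter gene, had 12.5 and 10.5 CPM in wild type and 12.9 and 12.3 in ref4-3 (log2 fold change 0.13, SE 0.172). IDL2, which encodes a peptide related to the abscission peptide IDA, had a log2 fold change of 0.13 (SE 0.156), and the senescence-associated gene AtS40-3 one of 0.09 (SE 0.186). At the misc_RNA gene AT4G07585 wild type held 14.2 and 10.0 CPM and ref4-3 10.9 and 11.8, a log2 fold change of -0.08 (SE 0.181). Differences of this size were not detectable at the depth of these regions, 63 to 125 counts per library.

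The ref4-3 replicates disagreed at 5 of the 128 regions by more than 0.5 on the log2 scale, and replicate 1 was the higher in each. The widest gaps were at photosynthesis genes. LHB1B1, a light-harvesting protein gene, had 7.10 and 7.76 CPM in wild type but 14.3 and 5.66 in ref4-3. RCA, which encodes Rubisco activase, had 14.2 and 15.5 CPM in wild type but 26.9 and 13.2 in ref4-3. The second replicate lay below both wild-type libraries at both genes. The 3 others were AT2G47010, AtS40-3 and BLH2. The wild-type replicates were that far apart at 1 region.

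By words in the annotation, 15 of the 120 protein-coding genes on the islands encode transcription factors (12.5%). The share was 10.7% on shared islands, 6.63% on wild-type-only islands and 7.29% of all protein-coding genes. Besides RAV1, HAT1, BZIP34, PAR1, GLK2 and EBP these are ETC1, RAP2.6, RAV2, AT2G13985, ZAT11, BLH2, LBD39, ERF9 and AT5G56840. Their 16 regions had H3K27me3 log2 fold changes from 0.28 to 1.27, with a median of 0.55. Receptor and protein kinase genes numbered 8, with 9 regions from 0.20 to 0.46. Of 5 small secreted peptide genes the regions ran from 0.13 to 0.59. F-box genes made up 3 of the 120 (2.50%), against 6.06% on shared islands, 4.82% on wild-type-only islands and 2.95% of all protein-coding genes.

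Of the 26 listed jasmonate genes, LOX4 and AOC2 had sequence on the islands, and of the 19 listed phenylpropanoid genes 4CL2 did. None of the listed flowering, Polycomb or Mediator tail genes did. The islands touched 120 of 27444 protein-coding genes, so counts in lists this short say little. Of the 17 flowering genes, 14 lay on shared islands. LOX4, a 13-lipoxygenase gene at the entry to jasmonate synthesis, had 12.8 and 15.2 CPM of H3K27me3 in wild type and 20.5 and 17.9 in ref4-3 (log2 fold change 0.44, SE 0.154). AOC2, an allene oxide cyclase gene, had 22.6 and 20.5 CPM against 31.5 and 23.4 (0.33, SE 0.140). 4CL2, a 4-coumarate:CoA ligase gene of monolignol synthesis, had 15.1 and 14.2 CPM against 20.9 and 20.1 (0.48, SE 0.147). AOC3, the neighbor of AOC2 and not on the list, also lay on an island (23.5 and 22.7 CPM against 39.8 and 37.9).

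Off these islands, 9 of the jasmonate genes had a counted H3K27me3 region, and the edgeR exact test called 5 of their 9 regions higher and 0 lower, beside 5.43% and 7.54% of all H3K27me3 regions. The 5 were those of JAZ1, JAZ8, JAZ10, AOC1 and LOX4. For the phenylpropanoid genes 2 of 8 regions were called higher, in PAL1 and 4CL2, and 1 lower, in 4CL3. LOX4 and 4CL2 thus carried a second region on a shared island, with log2 fold changes of 0.37 and 0.59. Of the 14 flowering regions 0 were called higher and 2 lower, AGL20 and MAF5, and of the 3 Polycomb regions 0 in either direction. For H2A.Z, 9 of the 26 regions of jasmonate genes off the islands were called lower and 0 higher. Of all H2A.Z regions 1.63% were lower and 2.65% higher. LOX4 was among the lower, and LOX3 and TIFY7 each gave more than 1 of these regions. Of the 26 regions of phenylpropanoid genes, 1 was called each way. At the flowering genes 0 of 22 H2A.Z regions were called higher and 1 lower, and 0 of the 9 Polycomb and 3 Mediator tail regions were called. All these calls off the islands are from the edgeR exact test, and they were not counted by list in DESeq2. Over all regions DESeq2 called 190 higher and 223 lower for H3K27me3, and 17 each way for H2A.Z. In all, 22 of the 124 genes had another counted region off the islands. These 24 regions had a median log2 fold change of 0.08, from -0.41 at IKU2 to 1.08 at KCS20, and 18 were above 0.

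H2A.Z was measured in other immunoprecipitations and did not enter the choice of the islands. An H2A.Z island of wild type overlapped 123 of the 244 (50.4%, exact 95% binomial interval 44.0 to 56.8) and one of ref4-3 121 (49.6%, interval 43.2 to 56.0). The shares were 89.0% and 88.2% for shared islands and 73.6% and 68.2% for wild-type-only islands. Shared islands are longer and so meet an H2A.Z island more easily. With at least 0.5 of the island's length covered, the shares were 46.3% (wild type) and 46.7% (ref4-3) for ref4-3-only islands. By that measure they were 70.3% and 68.1% for shared and 70.7% and 65.3% for wild-type-only islands. Both genotypes had H2A.Z at 115 of the islands and neither at another 115, so 8 had it only in wild type and 6 only in ref4-3. The intervals cover counting error only.

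H2A.Z counts were available for 108 gene regions of 106 genes that shared sequence with the islands, 70 of them with most of their length there. Their median log2 fold change was 0.02, ranging from -0.47 to 0.61, and 61 were above 0. The median over all 24960 H2A.Z regions was 0.00, and it was -0.02 at shared and -0.06 at wild-type-only islands. The same scaling holds the bulk of H2A.Z regions near 0. In the edgeR exact test over all regions (FDR below 0.05, fold change above 1.2), 8 of the 108 were called higher and 3 lower, which is 7.41% and 2.78% beside 2.65% and 1.63% of all H2A.Z regions. Both ref4-3 libraries lay above both wild-type libraries at 33 of the 108 (30.6%, beside 24.0% of all regions) and below them at 24 (22.2%, beside 24.2%). Of the wild-type libraries, leaving out replicate 1 left 1 higher and 1 lower call, and leaving out replicate 2 left 0 higher and 2 lower. The lower calls numbered 5 without ref4-3 replicate 1 and 1 without ref4-3 replicate 2. DESeq2 called 0 in either direction, with 6 higher and 2 lower at an unadjusted p below 0.05. Over all 24960 H2A.Z regions it called 17 higher and 17 lower, where the edgeR exact test called 661 and 407. The drop in DESeq2 is thus not particular to the islands. Without wild-type replicate 2 the exact test gave 13 higher and 5 lower at that p.

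EBP rose most. Its H2A.Z region had 26.9 and 19.4 CPM in wild type and 33.1 and 37.4 in ref4-3 (log2 fold change 0.61, SE 0.104, FDR 1.97e-06, edgeR exact test), and it was the only region of the 108 above 1.5-fold. It is also 1 of the 12 genes with the largest H3K27me3 difference on the islands. RAP2.6, another ethylene response factor gene, had 31.4 and 33.6 CPM of H2A.Z against 40.1 and 43.3 (0.35, FDR 0.00512, edgeR). OFP15, an ovate family repressor of growth, had 35.3 and 34.8 CPM against 41.0 and 45.1 (0.29, FDR 0.0263, edgeR). The genotypes did not overlap at these 3 genes, which were picked for their calls on the same libraries. EBP was not called without wild-type replicate 2, RAP2.6 and OFP15 not without either wild-type replicate, and OFP15 also not without ref4-3 replicate 2.

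The other H2A.Z regions called higher had log2 fold changes of 0.30 to 0.34. They belong to the esterase gene AT3G11210 (61.2 and 62.2 CPM in wild type, 75.4 and 79.6 in ref4-3), the protein kinase gene AT3G01490, the RING/U-box gene AT1G35625, AT3G10720, of the pectin methylesterase inhibitor family, and AT3G20450. Of the AT3G11210 region 400 of 2200 bp are on the island, and of the AT1G35625 region 484 of 1284 bp. The rest have most of their length there. At AT3G01490 and AT3G20450 the FDR was 0.0490 and 0.0491, just under the threshold. None of the 5 was called when either wild-type replicate was left out.

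**Figure D5:**
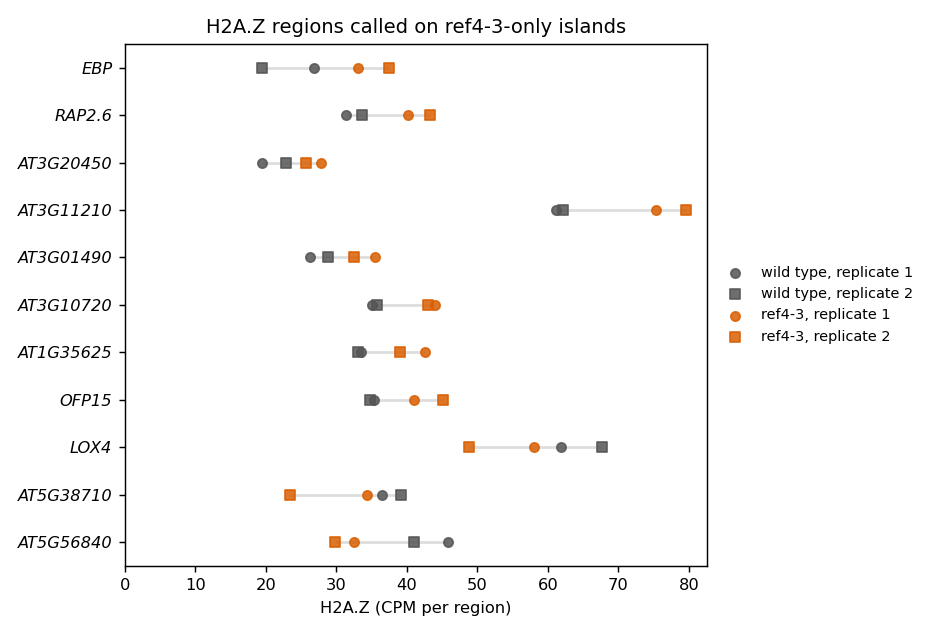
H2A.Z (CPM per region) in each library at the 11 regions on ref4-3-only islands that the edgeR exact test called. The first 8 are higher and the last 3 lower in ref4-3. The genotypes overlap at none of the 11, which their choice by these counts favors. Over all H2A.Z regions, both ref4-3 libraries lay above both wild-type libraries at 24.0% and below them at 24.2%.

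The 3 regions called lower for H2A.Z were those of AT5G56840, AT5G38710 and LOX4. AT5G56840, a MYB-like factor gene, had 45.8 and 41.0 CPM in wild type and 32.5 and 29.8 in ref4-3 (log2 fold change -0.47, SE 0.0913, FDR 4.25e-05, edgeR). AT5G38710, annotated with a methylenetetrahydrofolate reductase domain, had 36.5 and 39.2 CPM against 34.3 and 23.4 (-0.38, FDR 0.00412, edgeR). LOX4 had 61.8 and 67.7 CPM against 58.1 and 48.8 (-0.27, FDR 0.0106, edgeR), over a region of 2000 bp of which 400 bp are on the island. At LOX4 the fold change lay close to the threshold of 1.2, and library totals in place of TMM factors took it below. LOX4 and AT5G38710 were not called without ref4-3 replicate 2 or wild-type replicate 2, and LOX4 and AT5G56840 not without wild-type replicate 1. The H3K27me3 log2 fold change of these genes on the islands was 0.32, 0.47 and 0.44, and at EBP, RAP2.6 and OFP15 it was 0.86, 0.47 and 0.29.

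At 3 of the genes with the largest H3K27me3 differences H2A.Z was not called. AT5G43755 had 28.3 and 29.7 CPM of H2A.Z in wild type and 25.5 and 23.1 in ref4-3 (log2 fold change -0.25, SE 0.106, FDR 0.160, edgeR). HAT1 had 22.3 and 23.5 CPM against 25.6 and 21.0 (0.03, SE 0.113, FDR 0.971, edgeR). BZIP34 had 50.3 and 49.6 CPM against 56.4 and 60.2 (0.22, SE 0.0760, FDR 0.0612, edgeR). A p above the threshold does not show that H2A.Z was the same. Of the 34 genes with a H3K27me3 fold change above 1.5 on an island, 27 had H2A.Z regions anywhere in the gene, 33 in all, and 2 of these were called higher and 0 lower, beside 2.65% and 1.63% of all H2A.Z regions. So few calls in 33 regions do not set them apart from the rest.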

How the data were processed

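ChIP-seq libraries of whole rosettes were made by the authors from 4 g of tissue per replicate. They trimmed reads with fastp 0.23.2, mapped them to TAIR10 with Bowtie2 (2.2.1 per the labels) and kept proper pairs with SAMtools 1.17. Islands were called with epic2 at a bin and gap of 200 bp, on each replicate and on merged replicates. The authors' island lists hold a −log10 value, which is not said to be of a p-value or of an adjusted one and was not used, and a score, used as a rank only. The deposited counts are fragments per gene region of at least 200 bp inside islands of either genotype, after removal of duplicates and without subtraction of input. A region exists only where an island was called, so genes with no island have no counts.

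Groups and replicate numbers came from the sample titles. Islands sharing at least 1 bp were taken to overlap. Counts were fitted over all regions of a mark with edgeR 4.0.16 in R 4.3.3 (TMM factors, exact test, Benjamini-Hochberg adjustment, as in the study), and DESeq2 1.42.0 was run as an alternative. The fit was tested on simulated data. Standard errors come from the fitted dispersion. All p-values measure the spread between 2 replicates per genotype, which the study calls biological. H3K27me3 libraries held 5805781 to 8466471 fragments in regions and H2A.Z libraries 7848342 to 10128759; ref4-3 replicate 1 was the shallowest for H3K27me3. Libraries of unequal depth went into the island calls, and the part of depth in the calls was not tested.

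Sequences, gene models and names are from the RefSeq annotation of TAIR10.1, whose chromosomes were compared with the files: each of the 33623 gene regions fell within its gene's annotated span. Gene parts were read from the longest transcript. Copies and repeats were searched with blastn 2.17.0. Where genes overlap, a fragment counts for both, which concerns 6 of the 128 H3K27me3 regions.

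Regions named are the 12 with the highest and the 4 with the lowest H3K27me3 log2 fold change (at least 100 counts over 4 libraries), every region called for H2A.Z, every listed pathway gene, the 5 highest scores, the longest islands, and those nearest to and farthest from the rule's limit. RCA, LHB1B1, AOC3, MIR172a and members of gene classes were named after their values were seen. The members, the gene lists and the tests were chosen with earlier results of these data known.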

Additional observations from a re-analysis of the deposited data

How the results depend on the processing

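The number of ref4-3-only islands, 244, fell to 146 when no wild-type island was allowed within 1 kb, to 4 with a score at or above the median of the ref4-3 list, to 89 when both ref4-3 replicate lists had to hold the island, and to 84 when the wild-type replicate lists also had to be free of it. Replicate lists alone, without replicate 1 or without replicate 2, gave 246 and 292.

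The 71 H3K27me3 calls on the islands became 44 with at least 100 counts in every library, 24 in DESeq2 and 39 on islands in both ref4-3 replicate lists and no wild-type list; leaving out each library gave 30 to 80, the lower values without wild-type replicate 2 (30) or 1 (34). The H3K27me3 median of 0.40 became 0.60 on those islands and 0.35 to 0.51 with a library left out. All these islands, and the subset by replicate lists, were chosen on the same H3K27me3 libraries. The H3K27me3 medians are therefore a description and test nothing.

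The 8 higher H2A.Z calls became 0 in DESeq2, 2 on islands in both ref4-3 replicate lists and no wild-type list, 1 above 1.5-fold and 3 at an FDR below 0.01, and 0 to 8 with a library left out, the single remaining sample being assumed to vary like the other group. The 3 lower calls became 0 in DESeq2, 0 above 1.5-fold and 6 over all H2A.Z regions of the genes, and 1 to 5 with a library left out. They were 1 without wild-type replicate 1 or ref4-3 replicate 2 and 5 without ref4-3 replicate 1. With the replicate block (edgeR quasi-likelihood) 6 were higher and 4 lower, without AT3G20450 and AT3G01490 among the higher. Same-numbered libraries did not deviate together, with a correlation of 0.0715 for H3K27me3 and -0.0251 for H2A.Z, so the numbers were not taken to pair the samples. The H2A.Z median of 0.02 stayed within the spread of the libraries under every alternative run. No named region changed direction where it had been called.

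The share of islands with an H2A.Z island was 42.6% to 45.9% from single wild-type lists and 42.2% to 45.9% from single ref4-3 lists, and 28.3% (wild type) and 29.9% (ref4-3) with H2A.Z islands of at least the median score. In the central 300 bp the share of islands with a motif was 4.51% in place of 9.84% for the telobox, 24.6% in place of 42.6% for the GA repeat, 70.1% in place of 88.9% for CTCC, 85.7% in place of 95.1% for CCG and 12.7% in place of 28.7% for the AC repeat, because the windows are shorter. Counts are low at these regions, with a median of 110 in the library that held the fewest at each region, which limits H3K27me3 differences to those well above an SE of about 0.149 on the log2 scale.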
